A study of Mus musculus with 10 samples.

Results

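The genes followed here encode collagens, laminins, integrins and cadherins, the proteins that build the extracellular matrix and fasten cells to it and to each other. They were chosen by gene symbol (Col, Lam, Itg, Cdh and Pcdh families) among the transcribed units (TUs) that the authors assigned to a single RefSeq gene, keeping those with more than 10 fragments in at least 2 of the 10 libraries. Of 70 symbol matches 64 passed, out of 28459 TUs tested and 14979 of them with a single gene. The 64 comprised 10 collagens, 7 laminins, 16 units with an integrin symbol, 11 cadherins (Cdh) and 20 protocadherins (Pcdh). The 6 that did not pass were Cdh9, Cdh13, Col6a5, Col22a1, Itgbl1 and Lama2. Just outside the minimum lay Col6a5, with 15 fragments in its highest library, and just inside lay Pcdh1, over the minimum in 3 libraries with a mean of 9.5 fragments. No member passed through the libraries of 1 group only, and 55 of 64 were over the minimum in all 10 libraries.

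Transcription was measured by TT_chem-seq, in which a short pulse of 4-thiouridine (4SU) labels RNA as it is being made, so that the fragments report production and not the stock of mRNA. The cells were SOX2-FKBP mouse embryonic stem cells, an E14 line in which the endogenous Sox2 gene carries an FKBP degradation tag, grown in serum-free medium with LIF and 2i. Every group carried the tag: the control (NT) received DMSO, and the other groups 500 nM dTAG-13, the compound that sends the tagged protein to the proteasome, for 0.5, 1, 2 or 6 h (hours post depletion, hpd). All were labelled with 2 mM 4SU for 10 min, and each group had 2 libraries. An untagged line given dTAG-13 was not analysed here, so effects of the compound and of SOX2 loss cannot be told apart.

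Laminins are secreted trimers of an alpha, a beta and a gamma chain that form the sheet of the basement membrane, the first matrix the early embryo makes, while collagens form its networks and fibres. Integrins are pairs of an alpha and a beta chain at the cell surface that bind laminin, fibronectin or collagen and connect them to actin. Cadherins hold neighbouring cells together in a calcium-dependent way through catenins, and E-cadherin (Cdh1) is the adhesion molecule that compacts the early embryo and embryonic stem cell colonies.

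The libraries held 11131490 to 25854106 fragments. Sox2 itself was transcribed at 243 and 283 CPM (fragments scaled to library size) in NT and at 271 and 278 after 6 h, which is no check of depletion, since dTAG-13 acts on the protein and no protein data were used here. Klf2, a transcription factor of the naive pluripotent state, stood at 76.9 and 79.1 CPM in NT and at 6.67 and 6.35 after 6 h. All 12 embryonic stem cell markers listed were above the minimum, with summed CPM of 4599 and 5064 in NT and 3816 and 4118 after 6 h. Of these 12, 0, 3, 6 and 8 fell after 0.5, 1, 2 and 6 h by edgeR's quasi-likelihood test (p adjusted by Benjamini-Hochberg, threshold 0.05), the criterion for "rose" and "fell" throughout. Of single-gene TUs 0.801%, 3.56%, 5.33% and 7.73% fell at these times. DESeq2, another count model, was run on the same TUs as an alternative.

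In NT, levels per length differed widely between members. Among units that cover most of their gene, Cdh1 was at 5.04 ± 0.40 CPM per kb (SD, n = 2), Lamc1 at 3.42, Lama5 at 2.14, Itga5 at 1.46 and Itga10 at 1.31, against a median of 0.777 over all single-gene TUs. Laminins had a median of 0.464 CPM per kb, the 16 units with an integrin symbol 0.484, collagens 0.131 and cadherins 0.0769. Of those 16 units 3 are not integrin chains, and the median of the 13 chains is that of Itgae, 0.225. The cells therefore transcribed Cdh1 and the laminin alpha 5 and gamma 1 chains above most genes, and most collagens and cadherins below. Cdh23, Cdh5 and Itga8 were the lowest named here, at 0.0129, 0.0179 and 0.0190 CPM per kb.

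Over the time course 12 members rose at 1 or more time points and 8 fell, none did both, and 44 were called at no time. Over the same 4 comparisons 8.46% of all TUs and 13.2% of single-gene TUs rose at 1 or more times, and 10.4% and 8.99% fell. At 0.5 hpd 2 of 64 rose (3.13%, against 0.527% of all TUs) and 1 fell (1.56%, against 0.787%). At 1 hpd 7 rose (10.9%, against 2.15%) and 2 fell (3.13%, against 3.61%), and after 2 h 9 rose (14.1%, against 4.26%) and 4 fell (6.25%, against 5.57%). At 6 hpd 6 rose (9.38%, against 6.61%) and 8 fell (12.5%, against 9.2%). Single-gene TUs, the class the members come from, rose more often than all TUs, in 0.835%, 3.55%, 6.88% and 10.4% at the 4 times, and fell in 0.801%, 3.56%, 5.33% and 7.73%. Apart from the 2 falls after 1 h, these counts changed when single libraries were left out. The 2 rises after 0.5 h became 0 without 0.5 hpd replicate 2 or NT replicate 2 and 1 without NT replicate 1, and 4 without either 2 hpd library. The 7 after 1 h became 3 without 1 hpd replicate 1 or NT replicate 2. The 9 after 2 h became fewer without 2 hpd replicate 1 or NT replicate 2. The 4 falls after 2 h became 2 without either 2 hpd library or NT replicate 1. The 6 rises after 6 h became 3 without 6 hpd replicate 2, and the 8 falls 5 without either 6 hpd library and 4 without NT replicate 1. The order of 6 rises and 8 falls after 6 h was not stable, with 9 rises and 7 falls when only the compared libraries were fitted and 10 and 9 with the replicate number as a block. In the joint test of the 4 time points 19 of 64 members passed, against 12.3% of all TUs and 15.3% of single-gene TUs. All 4 comparisons share the NT libraries.

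**Figure D1:**
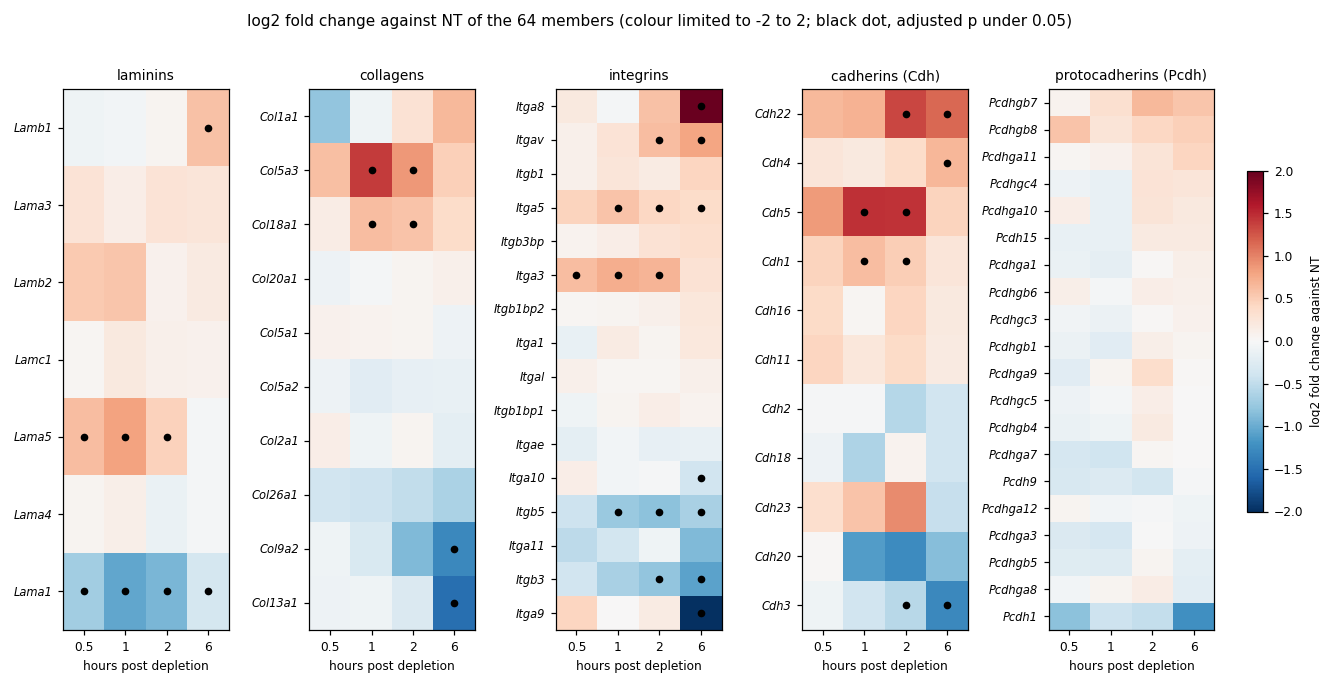
Heat map of log2 fold change against NT for the 64 members by family, with 1 column per time point in hours post depletion and a black dot where the adjusted p was under 0.05; colour is limited to the range -2 to 2. Lama1 is the only member with a dot at all 4 times, Itga8, Itga9 and Col13a1 change after 6 h, and the protocadherins carry no dot.

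Among the laminins 2 alpha chains moved in opposite directions within 0.5 h. Lama1 encodes the alpha 1 chain of laminin-111, the main laminin of the early embryonic basement membrane, and Lama5 the alpha 5 chain of laminin-511, on which pluripotent stem cells grow well. Lama1 (chr17:67695779-67825152, + strand, mm10) stood at 61.3 and 58.7 CPM in NT, 38.4 and 35.5 after 0.5 h, 30.2 and 28.1 after 1 h, 33.6 and 29.8 after 2 h and 45.7 and 48.0 after 6 h. Every depleted library lay below both NT libraries, with the lowest values after 1 h and a partial return by 6 hpd. The log2 fold changes against NT were -0.70 ± 0.11 (SE), -1.04 ± 0.11, -0.92 ± 0.11 and -0.36 ± 0.11, with edgeR adjusted p of 0.0039, 3.6e-05, 5.4e-05 and 0.033. Lama1 was the only member called at all 4 times. From 1 to 6 hpd it rose by 0.69 ± 0.11 (adjusted p = 0.0016).

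Lama5 (chr2:180169587-180238436, - strand) gave 146 and 149 CPM in NT, 213 and 241 after 0.5 h, 246 and 268 after 1 h, 198 and 209 after 2 h, and 145 and 142 after 6 h. It was thus higher than NT in all 6 libraries from 0.5 to 2 hpd, and after 6 h lay just below NT. The log2 fold changes were 0.62 ± 0.10, 0.80 ± 0.10, 0.46 ± 0.10 and -0.04 ± 0.10, with edgeR adjusted p of 0.0068, 0.00022, 0.0094 and 0.83. From 1 to 6 hpd Lama5 fell by 0.84 ± 0.10 on the log2 scale (adjusted p = 0.00021). The ratio of Lama5 to Lama1 fragments, which needs no scaling between libraries, was 2.38 and 2.54 in NT, 8.15 and 9.54 after 1 h, and 3.18 and 2.95 after 6 h. The Lama5 unit begins 12577 bases before the annotated start, and 71.9% of it lies in the gene.

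The weaker of these calls depended on single libraries. The Lama1 fall after 6 h lost its call without either 6 hpd, either NT or either 1 hpd library (log2 from -0.39 to -0.31, adjusted p up to 0.19) and with DESeq2, while the fall after 0.5 h lay at the threshold without 0.5 hpd replicate 2 (-0.63, adjusted p = 0.0501). The Lama5 rise after 0.5 h was lost without 0.5 hpd replicate 2 (0.54, adjusted p = 0.061), NT replicate 1 (0.60, 0.068) or NT replicate 2 (0.64, 0.087), and that after 2 h without NT replicate 1 (0.44, 0.060) or replicate 2 (0.48, 0.062).

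The chains that pair with them moved later or not detectably. Lamb1, the beta 1 chain, was at 18.3 and 19.8 CPM in NT and between 16.7 and 20.2 up to 2 hpd, then at 25.3 and 32.0 after 6 h, so that only the 6 hpd libraries lay above NT as a pair. Its change after 6 h was 0.59 ± 0.14 (adjusted p = 0.0092), lost without 6 hpd replicate 2 (0.41, adjusted p = 0.14) and at the threshold without NT replicate 1 (0.56, 0.0503). Lamc1, the gamma 1 chain shared by most laminins and the most strongly transcribed laminin, was at 422 and 429 CPM in NT and 430 and 477 after 6 h. Its changes lay between 0.03 and 0.19, each ± 0.11, with adjusted p of 0.37 to 0.97. The other 3 laminins, Lama3, Lama4 and Lamb2, were called at no time.

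**Figure D2:**
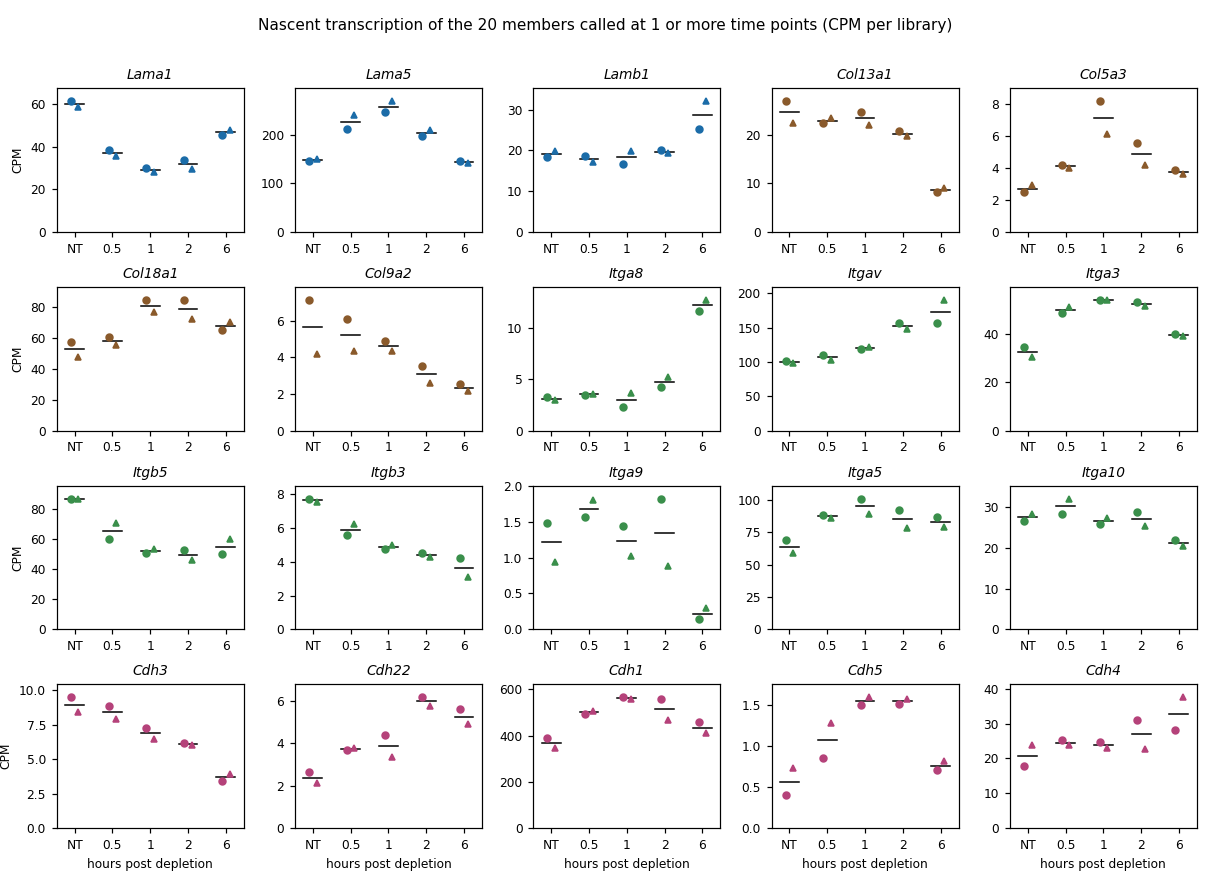
Nascent transcription in CPM of the 20 members called at 1 or more time points, in NT and at 0.5, 1, 2 and 6 hours post depletion; circles are replicate 1, triangles replicate 2 and bars the mean of 2 libraries, with a separate linear axis from 0 for each gene. Lama1 dips to 30.2 and 28.1 CPM after 1 h while Lama5 peaks at 246 and 268, and Itga8 stays at 5.20 CPM or less until 2 hpd before reaching 11.7 and 12.7 after 6 h.

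Of the 16 units with an integrin symbol 13 encode integrin chains, and 3 (Itgb1bp1, Itgb1bp2 and Itgb3bp) encode proteins that bind integrin tails and were called at no time. Of the 13 chains 4 rose (Itga3, Itga5, Itga8 and Itgav) and 4 fell (Itga9, Itga10, Itgb3 and Itgb5) at 1 or more times, as did 13.2% and 8.99% of single-gene TUs.

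Itgav, the alpha v chain that binds vitronectin and fibronectin, moved in the opposite direction to Itgb5 and Itgb3, 2 of its beta partners. Itgav (chr2:83723085-83811035, + strand) stood at 101 and 98.5 CPM in NT, 111 and 103 after 0.5 h, 119 and 122 after 1 h, 157 and 148 after 2 h and 156 and 190 after 6 h. The libraries from 2 hpd on were all above those of NT, 0.5 and 1 hpd. The change was 0.61 ± 0.11 after 2 h (adjusted p = 0.0020) and 0.80 ± 0.11 after 6 h (adjusted p = 0.00015).

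Itgb5, the beta 5 chain that pairs only with alpha v, moved the other way. Itgb5 (chr16:33829674-33960959, + strand) went from 86.1 and 86.5 CPM in NT to 60.0 and 70.6 after 0.5 h, 50.3 and 53.0 after 1 h, 52.5 and 45.6 after 2 h and 49.7 and 59.8 after 6 h. All depleted libraries were below NT, and the level reached after 1 h was held. It fell by 0.74 ± 0.12 after 1 h, 0.81 ± 0.12 after 2 h and 0.65 ± 0.12 after 6 h on the log2 scale (adjusted p = 0.0015, 0.00042 and 0.0017). The ratio of Itgav to Itgb5 fragments was 1.18 and 1.14 in NT, 2.36 and 2.30 after 1 h, and 3.15 and 3.18 after 6 h. Umps, whose unit overlaps the end of Itgb5 on the opposite strand, fell by 0.36 and 0.48 after 2 and 6 h (adjusted p = 0.045 and 0.0067).

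Itgb3, another beta chain that joins alpha v, was chosen after its values were seen and is weakly transcribed. It was at 7.74 and 7.56 CPM in NT, 5.58 and 6.24 after 0.5 h, 4.77 and 5.01 after 1 h, 4.55 and 4.27 after 2 h and 4.22 and 3.09 after 6 h, with no depleted library reaching NT. It fell by 0.79 ± 0.19 after 2 h (adjusted p = 0.016) and 1.08 ± 0.20 after 6 h (adjusted p = 0.0018). The 2 hpd call was lost without either NT or either 2 hpd library (-0.84 to -0.76, adjusted p from 0.052 to 0.074).

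**Figure D3:**
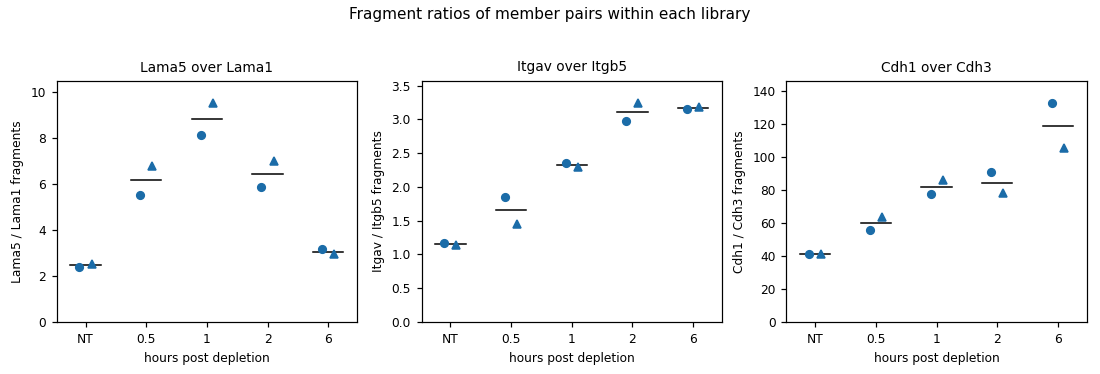
Ratio of fragments of Lama5 to Lama1, Itgav to Itgb5 and Cdh1 to Cdh3 within each library, in NT and by hours post depletion; circles are replicate 1, triangles replicate 2, bars the mean of 2 libraries, and each linear axis starts at 0. The laminin ratio peaks at 8.15 and 9.54 after 1 h and returns to 3.18 and 2.95 after 6 h, while the other ratios are highest after 2 or 6 h.

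The alpha 3 chain, a laminin receptor, and the alpha 5 chain, the fibronectin receptor, rose early. Itga3 (chr11:95040903-95080930, - strand) stood at 34.6 and 30.3 CPM in NT, 48.6 and 51.0 after 0.5 h, 53.9 and 53.8 after 1 h, 52.9 and 51.4 after 2 h and 39.97 and 39.02 after 6 h. Every depleted library was above NT, and the 6 hpd pair lay between NT and the earlier times. The changes were 0.62 ± 0.10, 0.73 ± 0.10, 0.68 ± 0.10 and 0.28 ± 0.11, the first 3 with adjusted p of 0.0076, 0.00049 and 0.00053 and the last 0.083. The 0.5 hpd call was lost without NT replicate 2 (0.53, adjusted p = 0.114) or 0.5 hpd replicate 2 (0.60, 0.056). The unit begins 4129 bases before the nearest annotated start, has 61.8% of its length in the gene and also holds Pdk2, a coding gene on the same strand, so its count is not of Itga3 alone.

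Itga5 was at 69.1 and 58.7 CPM in NT, 101 and 89.4 after 1 h and 86.5 and 78.6 after 6 h, again with every depleted library above NT. Its changes were 0.57 ± 0.12 after 1 h, 0.41 ± 0.12 after 2 h and 0.37 ± 0.12 after 6 h (adjusted p = 0.0083, 0.038 and 0.048). All 3 calls were lost without NT replicate 2 (0.48, 0.30 and 0.28, with adjusted p of 0.107, 0.292 and 0.283). Those after 1 and 2 h were also lost without replicate 1 of their own time (0.48 and 0.29), and that after 6 h without either 6 hpd library (0.31 and 0.44) and with DESeq2. At the margin, the 2 hpd call was also lost without either 1 hpd library or 6 hpd replicate 2 (adjusted p from 0.052 to 0.055), and the 6 hpd call without either 1 hpd library or 0.5 hpd replicate 1 (0.052 to 0.066). The unit runs past the gene into Zfp385a on the same strand, with 51.3% of its length inside Itga5, so its count is not of Itga5 alone.

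Itga8, whose alpha 8 beta 1 receptor binds nephronectin and is best known in kidney development, had the largest rise among the members after 6 h. Itga8 (chr2:12138209-12301391, - strand) was near the bottom of the family until 2 hpd, at 3.23 and 2.98 CPM in NT, 3.51 and 3.59 after 0.5 h, 2.32 and 3.70 after 1 h and 4.20 and 5.20 after 2 h, and then reached 11.7 and 12.7 after 6 h. The 6 hpd libraries were far above all others, and the 2 hpd pair lay above the earlier ones. The change was 1.97 ± 0.22 after 6 h against NT (adjusted p = 2.3e-05) and 2.01 ± 0.22 against 1 hpd (adjusted p = 7.2e-05).

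Itga9 and Itga10 fell after 6 h and were chosen after their values were seen. Itga9, from a unit that covers 10.7% of the gene and begins far inside it, was at 1.48 and 0.945 CPM in NT and 0.140 and 0.291 after 6 h, a change of -2.42 ± 0.58 (adjusted p = 0.010) that rests on a mean of 19.5 fragments a library. It was lost without NT replicate 1 (-2.04, adjusted p = 0.073) or 6 hpd replicate 1 (-2.03, 0.084). Itga10, a collagen receptor chain whose unit overlaps Gm42957 on the same strand, went from 26.7 and 28.3 CPM to 21.9 and 20.6, or -0.38 ± 0.12 (adjusted p = 0.045). That call was lost in 11 of 17 alternatives, DESeq2 and the removal of either NT, 1 hpd or 6 hpd library or of 0.5 hpd replicate 2 among them (-0.41 to -0.31, adjusted p up to 0.227).

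Itgb1, the beta 1 chain that most of these alpha chains pair with, was at 81.3 and 71.9 CPM in NT and 106 and 101 after 6 h. The groups did not overlap, but the change of 0.43 ± 0.16 did not pass (adjusted p = 0.078). No unit carried the symbol Itga6, the alpha 6 laminin receptor chain of stem cells. Over that gene lie 2 units without a symbol on its strand, neither of them a member. The one at its start (chr2:71744468-71770929) was at 7.53 ± 0.48 CPM in NT and below that at all 4 times, and fell after 1 h (log2 -0.76 ± 0.20, adjusted p = 0.040, against -0.37 ± 0.20 and 0.23 after 6 h). The one over the rest (chr2:71786928-71866498) was at 155 ± 3.08 CPM in NT and 242 ± 56.0 after 6 h (log2 0.64 ± 0.13, adjusted p = 0.0035).

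Among the 11 cadherins Cdh1, Cdh4, Cdh5 and Cdh22 rose and Cdh3 fell at 1 or more times, beside the same 13.2% and 8.99% of single-gene TUs. Cdh1 (E-cadherin, chr8:106603376-106676273, + strand) and Cdh3 (P-cadherin, chr8:106509744-106559923, + strand) are neighbours, 43.5 kb apart on the same strand. Cdh1 stood at 388 and 347 CPM in NT, 494 and 508 after 0.5 h, 565 and 558 after 1 h, 560 and 469 after 2 h and 457 and 410 after 6 h, above NT in all 8 depleted libraries. It rose by 0.61 ± 0.12 after 1 h and 0.48 ± 0.11 after 2 h (adjusted p = 0.0044 and 0.014). Both calls were lost without NT replicate 2 (0.55 and 0.41) and without replicate 1 of their own time (0.60 and 0.35). The call after 2 h was also lost when only the compared libraries were fitted.

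Cdh3 went the other way, from 9.49 and 8.43 CPM in NT to 7.28 and 6.49 after 1 h, 6.17 and 6.02 after 2 h and 3.44 and 3.90 after 6 h. Its libraries from 1 hpd on were all below NT, and the 6 hpd pair was lowest. It fell by 0.56 ± 0.17 after 2 h (adjusted p = 0.049) and 1.28 ± 0.18 after 6 h (adjusted p = 0.00019). The 2 hpd call was lost without any 1 of the 10 libraries (-0.64 to -0.47, adjusted p from 0.056 to 0.194), and with DESeq2, while that after 6 h was kept throughout. Cdh1 gave 40.9 and 41.1 fragments for each of Cdh3 in NT, 77.6 and 86.0 after 1 h, and 133 and 105 after 6 h.

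Cdh22, a cadherin of brain and pituitary, has a unit that begins 91253 bases after the nearest annotated start. Cdh22 was at 2.63 and 2.11 CPM in NT, 3.67 and 3.76 after 0.5 h, 4.39 and 3.36 after 1 h, 6.17 and 5.79 after 2 h and 5.62 and 4.89 after 6 h. No depleted library overlapped NT. It rose by 1.33 ± 0.22 after 2 h and 1.14 ± 0.23 after 6 h (adjusted p = 0.0012 and 0.0033). Cdh5, the cadherin of endothelium, was weakly transcribed, from a unit that begins 11690 bases after the nearest annotated start. It was at 0.404 and 0.727 CPM in NT, 1.50 and 1.59 after 1 h and 1.52 and 1.58 after 2 h. Its changes of 1.46 ± 0.39 and 1.45 ± 0.39 (adjusted p = 0.041 and 0.027) rest on a mean of 18.6 fragments a library. They were not called by DESeq2, without NT replicate 1 (1.103 and 1.08, adjusted p = 0.201 and 0.151) or without either library of their own time (1.41 to 1.50, adjusted p from 0.060 to 0.194), and that after 1 h also without NT replicate 2 (1.94, 0.069) or either 6 hpd library (1.48 and 1.46, 0.052 and 0.055).

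Cdh4, the R-cadherin of retina, was chosen after its values were seen. It was at 17.9 and 23.8 CPM in NT and 28.2 and 37.6 after 6 h, where it rose by 0.66 ± 0.17 (adjusted p = 0.017). The call was lost without NT replicate 1 (0.49, adjusted p = 0.114) or 6 hpd replicate 2 (0.44, 0.201). The other 6 cadherins, Cdh2 (N-cadherin) included, were called at no time against NT.

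Collagens were few and weakly transcribed, and 2 of 10 rose early while 2 fell late, beside 13.2% of single-gene TUs that rose and 8.99% that fell at 1 or more times. No unit carried the symbols Col4a1 and Col4a2, the collagen of basement membranes. Col18a1, a basement membrane collagen whose end is released as endostatin, was at 57.5 and 47.7 CPM in NT, 60.7 and 55.3 after 0.5 h, 84.4 and 76.9 after 1 h, 84.4 and 72.3 after 2 h and 64.8 and 70.5 after 6 h. The 1, 2 and 6 hpd libraries lay above NT, with the highest values after 1 and 2 h. It rose by 0.62 ± 0.12 after 1 h and 0.58 ± 0.12 after 2 h (adjusted p = 0.0056 and 0.0062). Both calls were lost without NT replicate 2 (0.51 and 0.45, adjusted p = 0.084 and 0.095) or replicate 1 of their own time (0.55 and 0.46, 0.088 and 0.060).

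Col5a3, a chain of type V collagen, was at 2.49 and 2.91 CPM in NT, 4.18 and 4.02 after 0.5 h, 8.15 and 6.09 after 1 h, 5.56 and 4.21 after 2 h and 3.86 and 3.61 after 6 h. Its peak after 1 h did not overlap any other group, and it fell back by 0.93 ± 0.22 from 1 to 6 hpd on the log2 scale (adjusted p = 0.023). Against NT it rose by 1.40 ± 0.23 after 1 h (adjusted p = 0.0017) and 0.86 ± 0.24 after 2 h (adjusted p = 0.031). The 2 hpd call was lost without 2 hpd replicate 1 (0.64, adjusted p = 0.286) or either NT library (0.75 and 0.98, 0.134 and 0.095).

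Col13a1, a transmembrane collagen of cell junctions, had the smallest p of any member after 6 h. Col13a1 (chr10:61819691-61979081, - strand) was at 26.8 and 22.4 CPM in NT, 22.3 and 23.4 after 0.5 h, 24.7 and 22.0 after 1 h, 20.6 and 19.6 after 2 h, and 8.29 and 8.97 after 6 h. The 6 hpd pair was far below all other libraries. It fell by 1.51 ± 0.14 on the log2 scale after 6 h (adjusted p = 3.7e-06) and by 1.43 ± 0.14 from 1 to 6 hpd (adjusted p = 2.7e-05).

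Col9a2, a cartilage collagen chain, was at 7.13 and 4.22 CPM in NT and 2.53 and 2.15 after 6 h. It fell by 1.29 ± 0.29 (adjusted p = 0.0067), lost without NT replicate 1 (-0.84, adjusted p = 0.091) or 6 hpd replicate 2 (-1.17, 0.072), and its NT libraries differed from each other more than those of the other called collagens. Col20a1, the collagen with the highest level per length (1.14 CPM per kb in NT, from a unit that also holds Arfgap1), was at 56.5 and 49.2 CPM in NT and 57.3 and 56.4 after 6 h, with changes of -0.10 to 0.10 and adjusted p from 0.53 to 0.87.

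None of the 20 protocadherins was called at any time, where 13.2% of single-gene TUs rose and 8.99% fell. By edgeR 0, 0, 1 and 1 of 20 had an unadjusted p under 0.05 after 0.5, 1, 2 and 6 h, and DESeq2 called 0 at each. They encode neuronal adhesion proteins, and 17 of the 20 units are slices of the Pcdhg cluster (chr18:37661944-37849810), where variable exons share the constant exons downstream. These slices lie 11 bases apart along 1 strand and are not independent of each other. Their summed CPM was 159 and 135 in NT and 160 and 142 after 6 h, so that the groups overlapped. Pcdh15, whose 1.70 kb unit covers 0.110% of its gene, was at 17.2 and 16.4 CPM in NT and 21.8 and 16.4 after 6 h, with changes of -0.15 to 0.18.

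Read by family, the medians were not stable. At 6 hpd the median log2 fold change was 0.09 over the laminins, 0.16 over the integrin units, 0.18 over the cadherins, -0.12 over the collagens and 0.04 over the protocadherins, against -0.04 over all TUs and 0.07 over single-gene TUs. Over the alternatives these ranged from 0.00088 to 0.12, 0.065 to 0.20, -0.20 to 0.21, -0.24 to 0.086 and -0.052 to 0.19. The cadherins had medians of 0.34, 0.20 and 0.38 after 0.5, 1 and 2 h (0.16 to 0.44, 0.11 to 0.44 and 0.13 to 0.57 over the alternatives), but 5 of the 11 units cover under 40% of their gene, and the values after 0.5 and 2 h are those of Cdh23 (36.9% of the gene, adjusted p = 0.84) and Cdh11 (3.21% of the gene, a mean of 11.3 fragments, adjusted p = 0.67). Laminins, integrins, cadherins and collagens each held members that rose and members that fell. Between successive times, 0 of 64 members were called by edgeR from 0.5 to 1 hpd (5 at an unadjusted p under 0.05, 0 by DESeq2 and 2 up with the replicate number as a block, against 0.0105% of all TUs and 0.02% of single-gene TUs up, and 0.0984% and 0.113% down) and 0 from 1 to 2 hpd (9, and 0 by DESeq2, against 0.0211% of all and 0.0267% of single-gene TUs up, and 0.197% and 0.254% down). From 2 to 6 hpd 2 rose (Itga8 and Lama1, against 0.26% of all and 0.421% of single-gene TUs) and 4 fell (Cdh23, Col13a1, Itga9 and Lama5, against 0.517% and 0.741%). The 2 rises became 1 without 2 hpd replicate 2 or either 6 hpd library. The 4 falls became 3 without either 0.5 hpd library, 2 without either 2 hpd library, and 1 without any other library or when only the compared libraries were fitted. From 1 to 6 hpd 4 rose (Itga8, Itgav, Lama1 and Lamb1, against 1.96% of all and 2.98% of single-gene TUs) and 6 fell (Cdh3, Col13a1, Col5a3, Itga3, Itga9 and Lama5, against 2.92% and 3.32%).

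**Figure D4:**
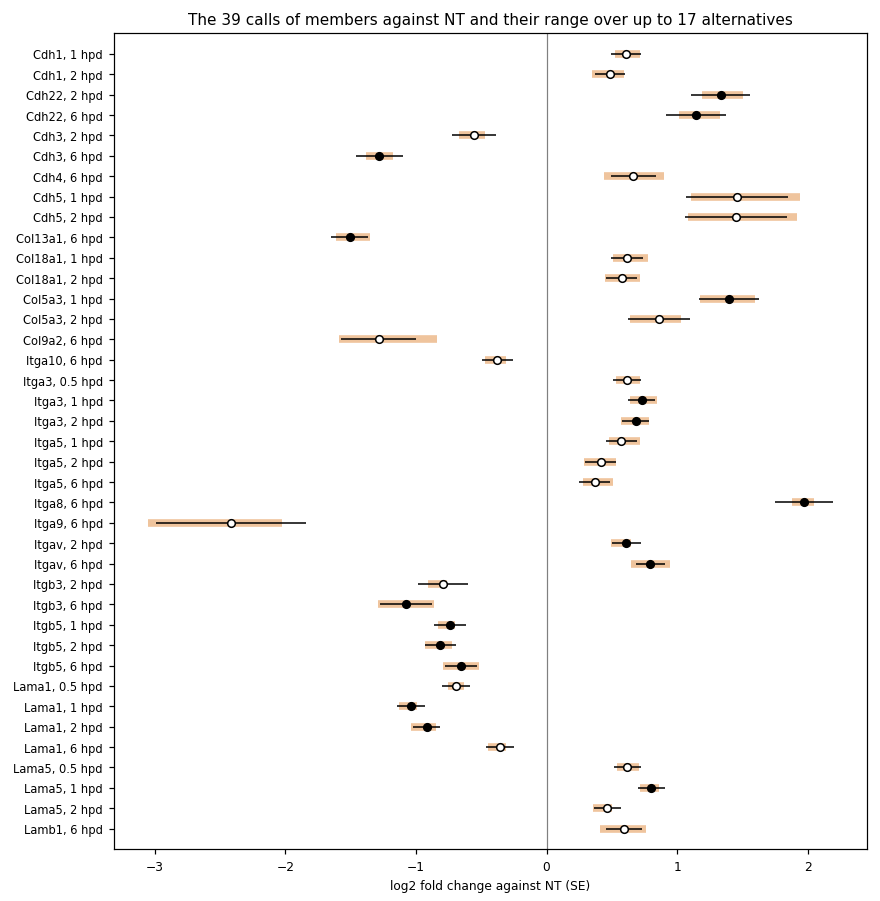
The 39 calls of members against NT, with the log2 fold change and its SE as points and bars and, as an orange band, the range over up to 17 alternatives; filled points mark calls kept under every alternative and open points calls lost under at least 1. No band crosses 0, and 17 of 39 points are filled, among them Lama1 and Lama5 after 1 h, Itgav and Itgb5 after 6 h and Col13a1 and Itga8 after 6 h.

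Several called members share their locus with units on the opposite strand, chosen after the data were seen. Such tested units numbered 19, of which 0 rose at any time and 0, 2, 4 and 6 fell after 0.5, 1, 2 and 6 h. Of all TUs 0.527%, 2.15%, 4.26% and 6.61% rose and 0.787%, 3.61%, 5.57% and 9.2% fell at these times. Inside Col13a1 the noncoding Gm40674 was called down from 1 hpd on, at 63.7 and 56.8 CPM in NT and 34.8 and 36.6 after 1 h, by 0.75 ± 0.11, 0.88 ± 0.11 and 1.102 ± 0.11 after 1, 2 and 6 h (adjusted p = 0.00049, 8.2e-05 and 7.6e-06). Gm30121, the other unit inside Col13a1, fell by 1.19 ± 0.25 after 2 h and 1.12 ± 0.25 after 6 h. Gm39454, opposite the Itga9 unit, fell by 2.55 ± 0.42 after 1 h, 2.95 ± 0.43 after 2 h and 4.38 ± 0.55 after 6 h, on a mean of 12.9 fragments a library. Gm40674 and Gm39454 were called down after 1 h and their hosts not before 6 hpd, while Gm30121 was not called after 1 h (edgeR adjusted p = 0.062). At Itgb3 and Itgb5 the order was the other way. An antisense unit inside Itgb3 was called down only after 6 h (adjusted p = 0.039), and Itgb3 from 2 hpd. Umps was called down from 2 hpd, and Itgb5 from 1 hpd. These differences in timing were not tested.

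The promoters of 27 of the 64 members were found among the RefSeq windows (GRCm38.p6), 14 of the 20 called members with them. Lama1, Cdh1, Cdh3, Cdh4, Cdh5 and Itgb3, all called, had no window. Some windows lie far from where the unit begins. The Itga9 unit begins 119922 bases after the annotated start of its window and the Lama5 unit 12577 bases before. The windows of Cdh22 and Itga3 and a second one of Col18a1 also lie apart from the unit's start. The Pcdh15 unit begins at -620293 bases from the nearest annotated start. The motif counts thus describe annotated starts. In the 300 bases of each window (250 before the start and 50 after), the SOX core motif ATTGTT was sought on both strands, with the longer CATTGTT that holds it, the octamer ATGCAAAT of OCT factors, the composite OCT4-SOX2 motif and the TATA box TATAAA. They occur in 10.7%, 3.78%, 1.74%, 0.00304% and 13.6% of 32851 promoters. Of 30 member windows 1, that of Itga8, held both SOX motifs, at position -206 from the annotated start on the reverse strand. None held the octamer or the composite, and 2 held the TATA box, Col13a1 at position -237 and Pcdh15. The G and C content of the 250 bases before the start had a median of 59.4% in member windows, against 52.4% over all promoters. Shown are the 250 bases before the start of 4 called members, chosen after the data were seen. Itga8 (chr2:12301945-12302194, - strand), which rose, and Col13a1 (chr10:61979109-61979358, - strand), which fell, are the called members with a match. Lamb1 (chr12:31265043-31265292, + strand), which rose, and Itgb5 (chr16:33829415-33829664, + strand), which fell, are examples without a match whose units begin 17 and 9 bases from the annotated start. Each is written 5′ to 3′ in the gene's direction, with the matches in capitals.
Itga8: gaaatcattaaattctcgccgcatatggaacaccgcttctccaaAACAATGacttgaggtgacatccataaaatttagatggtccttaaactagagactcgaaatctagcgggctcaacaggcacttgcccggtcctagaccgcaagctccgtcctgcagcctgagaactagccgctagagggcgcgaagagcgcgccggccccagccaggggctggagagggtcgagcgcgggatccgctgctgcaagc
Lamb1: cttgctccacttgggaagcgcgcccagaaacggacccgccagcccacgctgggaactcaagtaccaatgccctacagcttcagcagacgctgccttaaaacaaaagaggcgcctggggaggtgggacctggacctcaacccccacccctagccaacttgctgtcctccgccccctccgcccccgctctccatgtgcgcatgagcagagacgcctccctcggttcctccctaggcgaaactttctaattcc
Col13a1: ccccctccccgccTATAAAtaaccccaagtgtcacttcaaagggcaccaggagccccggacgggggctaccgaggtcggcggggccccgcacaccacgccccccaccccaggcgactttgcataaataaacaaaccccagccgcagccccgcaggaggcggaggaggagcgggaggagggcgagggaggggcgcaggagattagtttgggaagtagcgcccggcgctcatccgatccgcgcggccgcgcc
Itgb5: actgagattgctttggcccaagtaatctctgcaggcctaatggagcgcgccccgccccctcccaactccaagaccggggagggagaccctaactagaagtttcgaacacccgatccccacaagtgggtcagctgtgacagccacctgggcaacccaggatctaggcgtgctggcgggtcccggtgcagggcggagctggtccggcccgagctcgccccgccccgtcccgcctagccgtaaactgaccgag
Lamb1 and Itgb5 hold no match in these windows, and sites farther from the start were not searched.

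Partners of the members were read from lists of cytoplasmic, matrix and processing genes, whose counts stand against single-gene TUs of which 0.835%, 3.55%, 6.88% and 10.4% rose and 0.801%, 3.56%, 5.33% and 7.73% fell after 0.5, 1, 2 and 6 h. Of 14 tested cadherin partners 0, 4, 4 and 5 rose after 0.5, 1, 2 and 6 h and none fell, among them Dsp (desmoplakin, 0.79 ± 0.12 after 6 h, adjusted p = 0.00052) and Vcl (vinculin, 0.62 ± 0.13 after 1 h, adjusted p = 0.0084). Of 16 tested focal adhesion partners 0, 4, 3 and 2 rose and 0, 0, 0 and 1 fell. The 1 that fell was Parvb, which binds the integrin-linked kinase (-0.66 ± 0.11 after 6 h, adjusted p = 0.00056), while Flna, an actin crosslinker that binds integrin tails, rose after 1 h (0.38 ± 0.10, adjusted p = 0.031). At 6 hpd the median was 0.28 over the cadherin partners, 0.22 over the focal adhesion partners, 0.16 over the collagen-processing genes and 0.11 over the matrix partners, against -0.04 over all TUs and 0.07 over single-gene TUs.

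Of 12 tested matrix partners 1, 1, 2 and 3 rose and 0, 0, 1 and 2 fell. Sparc, a collagen-binding protein of basement membranes, rose at all 4 times (0.56 to 0.75, each ± 0.10), and Fbn2, a microfibril protein, rose after 6 h (0.92 ± 0.17, adjusted p = 0.0015). Of 13 tested collagen-processing genes 1, 2, 1 and 0 rose and 0, 0, 2 and 2 fell. Pcolce, which enhances trimming of procollagen, rose after 0.5 h (0.75 ± 0.14, adjusted p = 0.012), and Crtap, part of the prolyl 3-hydroxylase complex, fell after 6 h (-0.50 ± 0.10, adjusted p = 0.0028).

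Other cell types that make these genes were checked by their markers. Of 15 endoderm markers 7 were tested, with summed CPM of 114 and 115 in NT and 201 and 195 after 6 h. Of these 7, 1, 2, 3 and 2 rose after 0.5, 1, 2 and 6 h and none fell, and their median log2 fold change was 0.50, 0.58, 0.75 and 0.85, with the other 8 markers not tested. Of single-gene TUs 0.835%, 3.55%, 6.88% and 10.4% rose and 0.801%, 3.56%, 5.33% and 7.73% fell at these times. Sparc held most of that sum, from 83.2 CPM in NT to 127 after 6 h, and Dab2 rose from 13.2 to 49.7 CPM (log2 1.92, adjusted p = 5.8e-07), and the endoderm regulator Gata4 was at 1.04 CPM in NT and 0.858 after 6 h, Gata6 at 1.15 and 2.09 (adjusted p = 0.089), and Sox17 at or under the minimum with at most 14 fragments. Sparc is also counted among the matrix partners. The 4 tested of 10 fibroblast markers summed to 39.04 and 30.0 CPM in NT and 59.0 and 45.9 after 6 h, where Pdgfrb rose (log2 1.71, adjusted p = 4.9e-05) and Vim fell (-0.63, adjusted p = 0.038). Trophoblast markers (4 tested of 9) went from 53.0 and 51.1 to 31.0 and 27.0 CPM and neural markers (4 of 8) from 43.0 and 46.1 to 27.4 and 28.6. Tfap2c held most of the trophoblast sum (40.5 CPM in NT). Of the 4 trophoblast markers 1, 1, 1 and 0 rose and 0, 1, 2 and 2 fell after 0.5, 1, 2 and 6 h. Eomes was the one that rose (log2 1.52, 1.64 and 1.79 after 0.5, 1 and 2 h, edgeR adjusted p = 0.0015, 0.00018 and 4.0e-05). Of the 4 neural markers none rose and 0, 1, 2 and 2 fell. The part of these markers in the members' changes was not tested, and in bulk RNA fewer cells of a type and less RNA per cell cannot be told apart.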

How the data were processed

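TT_chem-seq libraries of 10 SOX2-FKBP samples (5 groups of 2) were analysed. Mapping by the authors used BWA 0.7.17-r1188 (mm10), a mapping quality filter of 10 in SAMtools 1.10 and removal of duplicates with Picard 2.12.0. The authors called TUs on pooled libraries, strand by strand, and deposited whole-number counts of fragments per TU and library, which were used as deposited. TUs end where the pooled signal ends, so a count can include sequence beyond the gene. Coordinates are those of the files, and promoter windows are from RefSeq GRCm38.p6.

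Only TUs for which 2 or more libraries held over 10 fragments (28459 of 40779, leaving out 0.316% of fragments) entered 1 edgeR 4.0.16 fit (R 4.3.3) with TMM factors, a coefficient per group and no covariates. Quasi-likelihood F-tests were adjusted over all TUs (Benjamini-Hochberg, 0.05). CPM use TMM library sizes, and SE is the log2 fold change over the square root of F. The labels do not say that replicates were separate cultures, so p-values measure the spread between these libraries, with a common biological coefficient of variation of 10.0%; replicates differed beyond counting noise (chi-square per degree of freedom 2.69 to 9.03). The fit was tested on simulated counts.

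Alternatives were DESeq2 1.42.0, RLE factors, total counts, omission of the filter on low counts, a stricter filter (mean of 50 counts), the compared libraries alone, the replicate number as a block, and leaving out each library, when a lone library is assumed to vary like the other groups. The members and lists were chosen with earlier results of these data known. Named members were, per family, the 4 with the smallest joint p among those called, the member with the smallest p per time and direction, the member highest per kb in NT, and Cdh1, Itgb1, Itga6, Lama1, Lamb1, Lamc1, Col4a1 and Col4a2 whether called or not. Of each partner list, the 2 genes with the smallest joint p among those called were named. Others are said to be chosen after their values were seen. Pairs starting within 5 kb on opposite strands were sought and 0 found. Lists of stem cell, endoderm, fibroblast, trophoblast and neural markers and of partners were read from the same fit. Figures used Python 3.11.15 and matplotlib 3.10.9.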

Additional observations from a re-analysis of the deposited data

Results flagged for a closer look

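For 10 members the change against NT differed between 1 and 6 hpd, as tested directly in the same edgeR fit. Lama1 rose between these times by 0.69 ± 0.11 on the log2 scale (adjusted p = 0.0016), Itga8 by 2.01 ± 0.22 (7.2e-05), Itgav by 0.53 ± 0.11 (0.0099) and Lamb1 by 0.65 ± 0.14 (0.013). Lama5 changed by -0.84 ± 0.10 (0.00021), Col13a1 by -1.43 ± 0.14 (2.7e-05), Cdh3 by -0.90 ± 0.18 (0.0094), Col5a3 by -0.93 ± 0.22 (0.023), Itga3 by -0.45 ± 0.10 (0.019) and Itga9 by -2.43 ± 0.56 (0.021). Those of Lama1, Itga8, Lama5 and Col13a1 were kept when any 1 library was left out. Without 1 hpd replicate 1 the calls of Itgav (0.51), Lamb1 (0.53), Cdh3 (-0.82), Col5a3 (-0.71), Itga3 (-0.44) and Itga9 (-2.17) were lost. Each of these calls was also lost without at least 1 further library: 1 hpd replicate 2 (Itgav 0.55, Itga3 -0.45, Itga9 -2.66), 6 hpd replicate 1 (Cdh3 -0.82, Col5a3 -0.98, Itga3 -0.47, Itga9 -2.05) or 6 hpd replicate 2 (Itgav 0.38, Lamb1 0.47, Col5a3 -0.88, Itga3 -0.43, Itga9 -3.06). These alternatives were added after seeing the data.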

How the results depend on the processing

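Of 39 calls of members against NT, 17 were kept under every alternative run for them, 22 were lost under at least 1 and 0 changed sign; 6 were lost with DESeq2, 5 with total counts, 4 when only the compared libraries were fitted and 0 with the replicate block. Leaving out each library in turn gave 0 to 4 members up and 0 to 1 down at 0.5 hpd (2 and 1 with all), 3 to 7 up at 1 hpd (7), 4 to 10 up and 2 to 4 down at 2 hpd (9 and 4), 3 to 8 up and 4 to 8 down at 6 hpd (6 and 8), 1 to 2 up and 1 to 3 down from 2 to 6 hpd (2 and 4), and 2 to 4 up and 2 to 7 down from 1 to 6 hpd (4 and 6). Fitting only the compared libraries gave 1 down from 2 to 6 hpd, and 9 up and 7 down at 6 hpd. Calls against NT lost in that fit were those of Cdh1, Cdh3 and Itga5 at 2 hpd and Itga10 at 6 hpd. With total counts those of Cdh5 at 1 and 2 hpd, Itga5 at 2 and 6 hpd and Col5a3 at 2 hpd were lost. Replicate numbers are shared by the groups, but deviations of same-numbered libraries correlated at 0.0742 to 0.291 over 10 pairs of groups. All were positive and 8 were above 0.1, the other 2 being pairs with 6 hpd (0.0742 and 0.0943), so a link between same-numbered libraries was neither taken as given nor excluded. With the replicate block 4 members rose and 2 fell at 0.5 hpd, 10 rose and 9 fell at 6 hpd, 2 rose from 0.5 to 1 hpd and 24 passed the joint test. Total counts shifted the median of all TUs to -0.06, -0.13, -0.16 and -0.13 at the 4 times, from -0.02, -0.04, -0.04 and -0.04. Under the alternatives 106 changes of members were recomputed, not those of all 64 members at each time. Among these, changes that were not called and passed 0 when a library was left out ranged, against NT, from -0.17 to 0.0082 for Cdh3, -0.23 to 0.028 for Col13a1, -0.19 to 0.0027 for Col20a1, -0.40 to 0.35 for Col9a2, -0.076 to 0.27 for Itgb1 and -0.013 to 0.090 for Lamc1 at 0.5 hpd. At 1 hpd they ranged from -0.18 to 0.074 for Col13a1, -0.12 to 0.080 for Col20a1, -0.61 to 0.14 for Col9a2, -0.088 to 0.014 for Itga10, -0.42 to 0.25 for Itga8, -0.25 to 0.39 for Itga9 and -0.19 to 0.063 for Lamb1. At 2 hpd they ranged from -0.031 to 0.17 for Col20a1, -0.12 to 0.052 for Itga10, -0.47 to 0.56 for Itga9, -0.12 to 0.38 for Itgb1 and -0.0038 to 0.11 for Lamb1, and at 6 hpd from -0.021 to 0.38 for Pcdh15. Total counts turned Col20a1 (-0.049), Lamb1 (-0.065) and Lamc1 (-0.018) at 2 hpd and Itga9 (-0.076) at 1 hpd, and DESeq2 and RLE factors turned Itga10 at 2 hpd (0.0098 each). Of 20 family medians, 13 moved beyond their spread with total counts and 11 without each NT library. The causes were not tested. Depth limits the low members: 17 of 64 had a mean under 50 fragments.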
